A study of Mus musculus with 6 samples.

Results

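Toll-like receptors and their adaptors were followed as 10 genes: the receptor genes Tlr2, Tlr3, Tlr4, Tlr7, Tlr9 and Tlr13, the co-receptor genes Cd14 and Ly96, and the adaptor genes Myd88 and Ticam1. Every probe whose RefSeq accession belongs to one of these genes was taken, which gave 11 of the 39429 probes on the array, 1 for each gene and 2 for Tlr7. The measurements came from the cardiac ventricles of female C57BL/6N mice aged 21 weeks. One group had its sleep repeatedly broken up for 5 weeks (sleep fragmented, 3 arrays) and the control group was left undisturbed (3 arrays). Each array carried the Cy3-labelled total RNA of 1 sample, and the comparison asks which heart transcripts differ after long-lasting loss of sleep continuity. The labels do not say whether the 3 samples of a group are 3 animals. The p-values therefore rest on the scatter among arrays, part of which may be technical.

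Toll-like receptors are membrane proteins of the innate immune system that recognise molecules of microbes or of damaged cells. Some sit at the cell surface and others inside endosomes, where they meet nucleic acids. After binding, the receptors recruit adaptor proteins: MyD88 serves every receptor of this set except Tlr3 and leads to NF-kappaB and inflammatory genes, while TRIF, the product of Ticam1, serves Tlr3 and, from endosomes, Tlr4, and leads also to interferon genes. In the heart these genes are carried by resident macrophages, other leukocytes, vessel cells and, at least in part, muscle cells. In a whole-ventricle sample, fewer cells of a type and less RNA per cell cannot be told apart.

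Promoter sequence is given for 3 genes because they frame the comparison between the receptor genes and the interferon-driven genes below. Each window holds the 250 bases before a transcription start in GRCm38.p6 (RefSeq), 5′ to 3′ on the gene's strand. For Tlr2 this start lies inside the gene span given below, so most of its window overlaps the gene. Capitals mark matches to the interferon-stimulated response element, searched on both strands as 2 copies of GAAA with any 2 bases between them. On the other strand it reads as 2 copies of TTTC spaced in the same way. Myd88 lies on chromosome 9 (window chr9:119340019-119340268, minus strand), Tlr2 on chromosome 3 (chr3:83841609-83841858, minus strand) and Ifit1 on chromosome 19 (chr19:34640639-34640888, plus strand).
Myd88: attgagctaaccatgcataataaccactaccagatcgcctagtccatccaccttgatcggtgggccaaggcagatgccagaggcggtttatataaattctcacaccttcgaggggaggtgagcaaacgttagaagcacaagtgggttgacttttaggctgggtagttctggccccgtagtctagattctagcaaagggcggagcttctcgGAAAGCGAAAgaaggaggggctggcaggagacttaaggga
Tlr2: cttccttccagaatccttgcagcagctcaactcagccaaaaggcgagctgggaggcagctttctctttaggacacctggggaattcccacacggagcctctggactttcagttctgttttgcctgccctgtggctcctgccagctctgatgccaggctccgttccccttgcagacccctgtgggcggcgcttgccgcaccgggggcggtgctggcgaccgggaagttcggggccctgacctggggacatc
Ifit1: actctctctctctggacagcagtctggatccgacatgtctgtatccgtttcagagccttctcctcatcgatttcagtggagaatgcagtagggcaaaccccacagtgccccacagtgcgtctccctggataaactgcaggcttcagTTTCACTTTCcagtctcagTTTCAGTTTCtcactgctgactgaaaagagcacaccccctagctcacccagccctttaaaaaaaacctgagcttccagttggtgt
The Myd88 window held 1 match, whose first base lies 40 bases before the start. The Ifit1 window held 2, at 104 and 85 bases before the start, and the Tlr2 window held none. Of 32851 windows of this length, 978 (3.0%) held a match. Windows were at hand for 6 of the 10 genes (Tlr2, Tlr3, Tlr9, Tlr13, Myd88 and Ticam1), and of these Myd88 alone had a match. A kappaB-like motif, searched on both strands as GGG, any 2 bases and TTTCC, occurs in 1.4% of all windows and was found in 1 of the 6, that of Tlr3. The Tlr3 window lies wholly inside the gene span given below, before an inner start, and the bases before the outer start were not searched. A match describes letters and does not show that a factor binds there.

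The share of probes well above background ranged over the arrays between 59.2% and 72.6%. Sleep fragmented replicate 1 was the dimmest array, with a 75th percentile of signal of 127 against 212 to 262 on the other 5. Values are log2 signals relative to the 75th percentile of their own array, so 0 means a signal at that percentile. Levels of different probes are not compared, because probes bind with different strength. The 8 ventricular muscle markers were all kept, with means of 6.13 to 6.84 on the sleep fragmented arrays and 6.13 to 6.43 on the control arrays. Atrial markers varied most, with means of 0.66 to 5.86 on the sleep fragmented arrays and 0.10 to 5.19 on the control arrays. The highest mean of each group was that of replicate 2. Per the headers, the 3 sleep fragmented arrays share 1 scan and the 3 control arrays another, so scan and group cannot be told apart for any difference below. A label in the header's barcode cell pairs each sleep fragmented array with the control array of the same replicate number. Whether it marks a shared slide or only a position on 2 slides could not be told, and the numbers were not taken to pair the samples, so differences within these pairs are given as values only.

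None of the 9 tested genes changed past the threshold. For these 9, whose probes were well above background on all 6 arrays, the arrays of the groups overlapped in every case. Their folds, sleep fragmented over control, lay between 0.793 (Tlr4) and 1.26 (Ticam1). The smallest adjusted p was 0.949 by limma, and 0 of the 9 had an unadjusted p under 0.05. Over all 25219 kept probes, 0 (0%) passed an adjusted p of 0.05 and 683 (2.71%) had an unadjusted p under 0.05. Of the 14548 named genes, 395 (2.72%) had an unadjusted p under 0.05, and groups did not overlap for 1075 (7.39%), of which 500 were higher (3.44%) and 575 lower (3.95%). Tlr3 was not well above background on any array and was not tested.

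**Figure D1:**
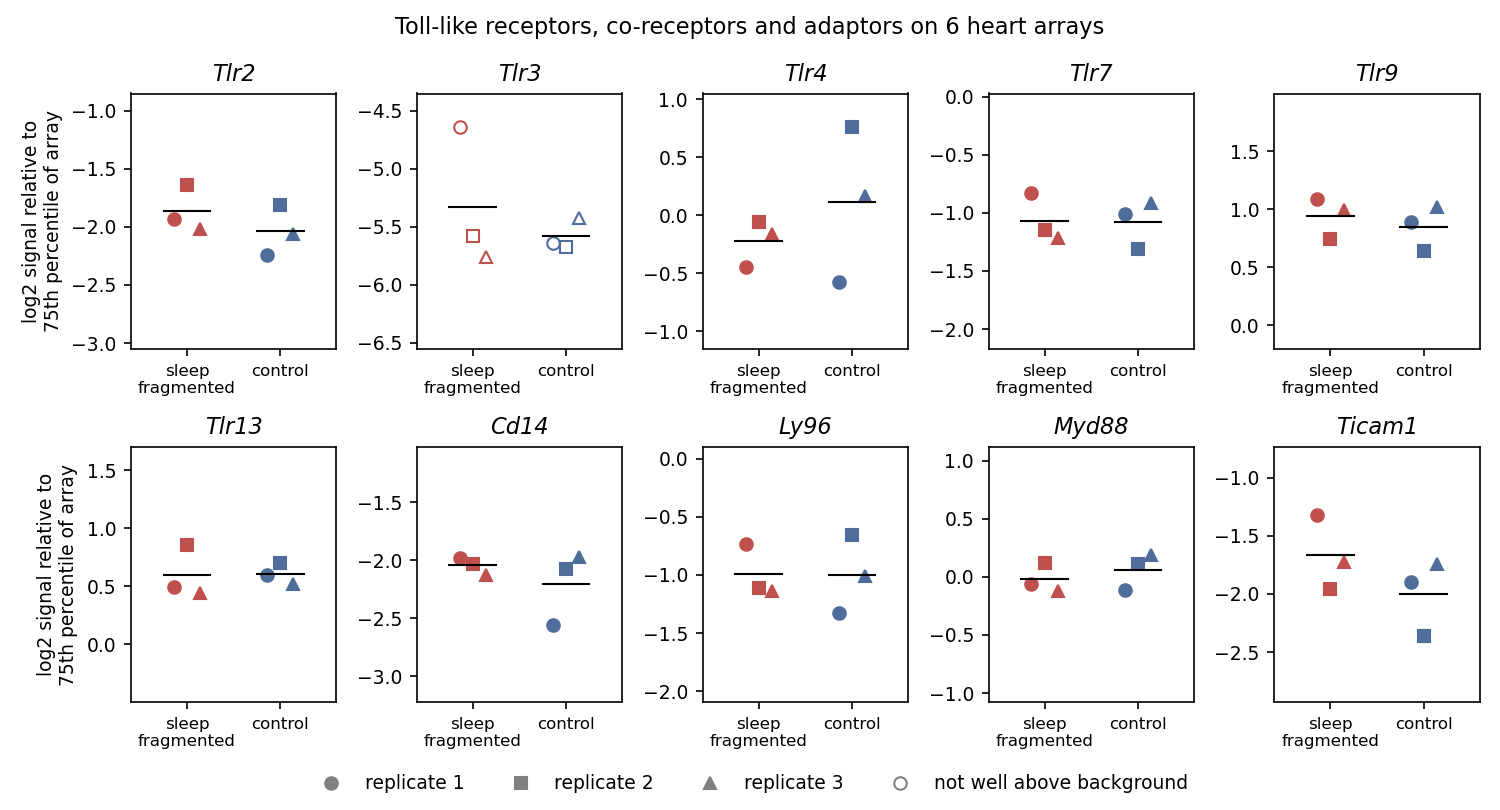
Log2 signal relative to the array's 75th percentile (vertical axis) for the 10 genes, with sleep fragmented arrays left of control arrays in each panel. Each symbol is 1 array, shaped by replicate, the line is the group mean, open symbols were not well above background, and each panel spans the same range of log2 units around its own mean. Only Tlr3 has open symbols, and in every other panel the groups overlap, with the widest spread for Tlr4 on the control arrays (-0.58 to 0.76).

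Tlr2 (chr3:83836272-83841824), the cell-surface receptor for bacterial lipoproteins, stood at -1.94, -1.64 and -2.02 on the sleep fragmented arrays and at -2.24, -1.81 and -2.06 on the control arrays. Replicate 2 was the highest of its group in both cases, control replicate 1 was the lowest array, and the groups overlapped. The log2 fold change was 0.17 ± 0.20 (moderated SE, n = 3 arrays per group; adjusted p = 0.949 by limma), a 1.13-fold difference with a 95% interval of 0.823 to 1.55. It was 0.061 without sleep fragmented replicate 2, 0.071 without control replicate 1 and 0.29 without control replicate 2.

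The Tlr2 probe is printed at 10 spots on each array, which separates the error of a spot from the difference between arrays. The SD among the spots of 1 array was 0.07 to 0.14 on the sleep fragmented arrays and 0.04 to 0.11 on the controls. The SD between array means was larger than any of these, at 0.20 for the sleep fragmented group and 0.22 for the controls.

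Tlr4 (chr4:66827551-66846581), the receptor for bacterial lipopolysaccharide, varied most of the 9 genes over the arrays, with an SD of 0.48 over all 6. It stood at -0.44, -0.06 and -0.16 on the sleep fragmented arrays and at -0.58, 0.76 and 0.16 on the control arrays. The sleep fragmented values lay inside the control range: control replicate 2 was the highest array and control replicate 1 the lowest. The SD was 0.20 in the sleep fragmented group and 0.67 in the controls. The log2 fold change was -0.34 ± 0.32 (adjusted p = 0.949 by limma), a fold of 0.793 with a 95% interval of 0.481 to 1.31, the only interval of the 9 that reached past 2-fold.

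The Tlr4 difference rested on single control arrays. Without control replicate 2 it was -0.013. Without control replicate 1 it was -0.68, with an unadjusted p of 0.0349 and an adjusted p of 0.979 by limma. With array weights in the fit it was 0.03, and over the other alternatives the adjusted p was not below 0.644. Within the header pairs the differences were 0.13, -0.82 and -0.32.

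Ly96 (chr1:16688456-16709605) encodes MD-2, the small protein that holds lipopolysaccharide on Tlr4. It stood at -0.73, -1.11 and -1.14 on the sleep fragmented arrays and at -1.33, -0.66 and -1.01 on the control arrays. As for Tlr4, control replicate 2 was highest and control replicate 1 lowest, and the sleep fragmented arrays lay between them. Its log2 fold change was 0.0026 ± 0.23, with a 95% interval in fold of 0.700 to 1.43.

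Cd14 (chromosome 18) encodes the surface protein that hands lipopolysaccharide to MD-2. It stood at -1.98, -2.03 and -2.13 on the sleep fragmented arrays and at -2.56, -2.07 and -1.97 on the control arrays. Control replicate 1 alone was low, and the other 5 arrays lay close together, the sleep fragmented ones inside the control range. Its log2 fold change was 0.16 ± 0.21, with an interval in fold of 0.804 to 1.54. Tlr2, Tlr4, Cd14 and Ly96, the 4 surface receptor and co-receptor genes, all had their lowest value on control replicate 1.

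Of the endosomal receptor genes, Tlr9 and Tlr13 differed between the groups by less than the error. Tlr9 (chr9:106222598-106226876), the receptor for unmethylated CpG DNA, stood at 1.09, 0.75 and 1.00 on the sleep fragmented arrays and at 0.89, 0.64 and 1.02 on the control arrays. In each group replicate 2 was the lowest, and the groups overlapped. The difference was 0.09 ± 0.19 in log2, with an interval in fold of 0.787 to 1.45. Tlr13 (chrX:106143275-106160493), which in mice recognises bacterial ribosomal RNA, stood at 0.49, 0.86 and 0.44 on the sleep fragmented arrays and at 0.60, 0.70 and 0.52 on the control arrays. Here replicate 2 was the highest of each group, the groups overlapped, and the difference was -0.011 ± 0.19 in log2.

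Tlr7 (chrX:167303380-167330574), the receptor for single-stranded RNA, was read by 2 probes of the same RefSeq transcript. The brighter one stood at -0.83, -1.15 and -1.22 on the sleep fragmented arrays and at -1.01, -1.31 and -0.91 on the control arrays. The dimmer one stood at -2.15, -2.06 and -2.41 on the sleep fragmented arrays and at -2.74, -2.41 and -2.21 on the control arrays. Both sets overlapped, and the probes ranked the arrays differently: control replicate 2 was lowest on the brighter probe and control replicate 1 on the dimmer one. Their log2 fold changes were 0.013 ± 0.20 and 0.25 ± 0.21 (adjusted p = 0.993 and 0.949 by limma).

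Tlr3 (chr8:45395665-45411075), the receptor for double-stranded RNA, had processed signals of 5.09, 4.85 and 3.91 on the sleep fragmented arrays and of 5.24, 5.04 and 5.01 on the control arrays. The dimmest spots called well above background on these arrays had signals between 17.0 and 24.1. No fold is given for Tlr3, since its probe was not well above background on any array.

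Myd88 (chr9:119335934-119340018), the shared adaptor, was the most precisely measured of the genes. It stood at -0.06, 0.12 and -0.12 on the sleep fragmented arrays and at -0.12, 0.11 and 0.19 on the control arrays. The lowest 3 arrays included 1 control, and the groups overlapped. Its log2 fold change was -0.08 ± 0.18, with an interval in fold of 0.708 to 1.26. Its probe is also printed at 10 spots, whose SD was 0.05 to 0.07 on the arrays of both groups, below the SD between arrays (0.13 in the sleep fragmented group and 0.16 in the controls). Under all 17 alternatives the difference was negative, between -0.29 and -0.02, with no adjusted p below 0.798. The filter, block and prior settings among them return the main estimate, so their sign was fixed in advance.

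**Figure D2:**
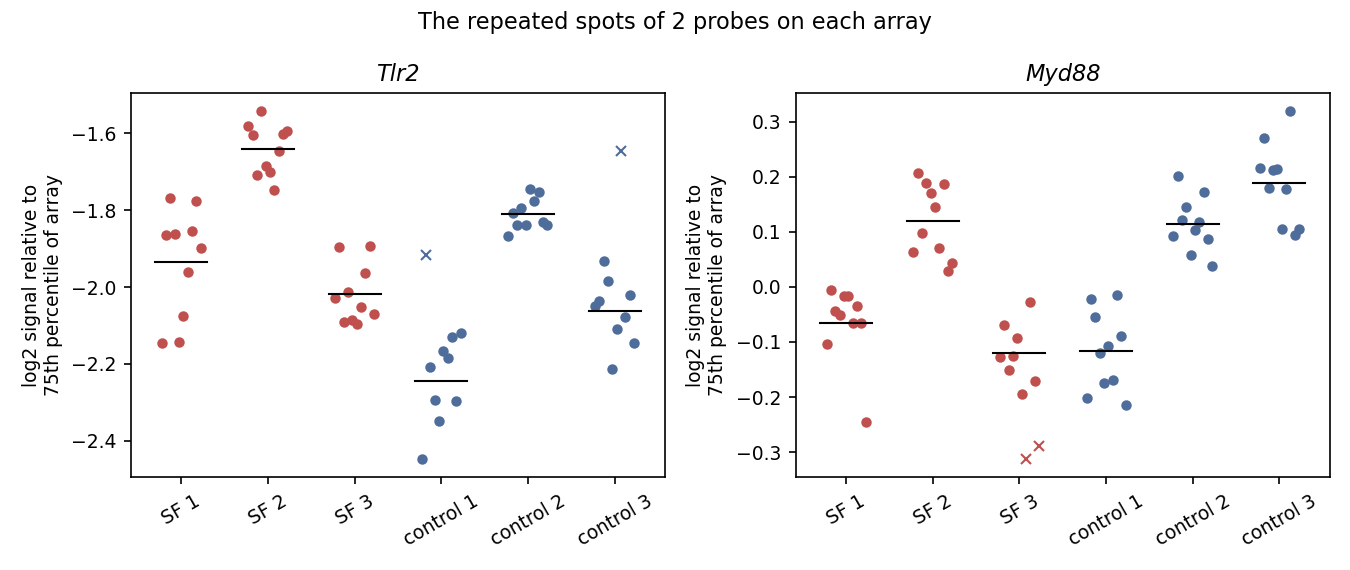
Log2 signal relative to the array's 75th percentile of each repeated spot of the Tlr2 probe (left) and the Myd88 probe (right), by array, with sleep fragmented (SF) arrays left of controls. Dots are spots, crosses are spots left out as outliers and lines are array means. Spots of 1 array lie close together, and the array means of the groups interleave.

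Ticam1 (chr17:56269462-56276767), the adaptor of Tlr3 and of endosomal Tlr4, had the smallest unadjusted p of the 9 genes, 0.200 by limma. It stood at -1.32, -1.95 and -1.72 on the sleep fragmented arrays and at -1.90, -2.36 and -1.74 on the control arrays. Sleep fragmented replicate 1 was the highest, control replicate 2 the lowest, and sleep fragmented replicate 2 lay below both other controls. The log2 fold change was 0.34 ± 0.24, a 1.26-fold difference with an interval of 0.862 to 1.85. Within the header pairs it was 0.58, 0.41 and 0.017. Under the 17 alternatives it was positive each time, between 0.13 and 0.48, with no adjusted p below 0.524. The filter, block, prior and outlier-spot settings among them return the main estimate of this gene, so their sign was fixed in advance. The array where Ticam1 was highest was also the dimmest of the 6, and without it the difference was 0.16. Without control replicate 2, where Ticam1 was lowest, it was 0.15.

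**Figure D3:**
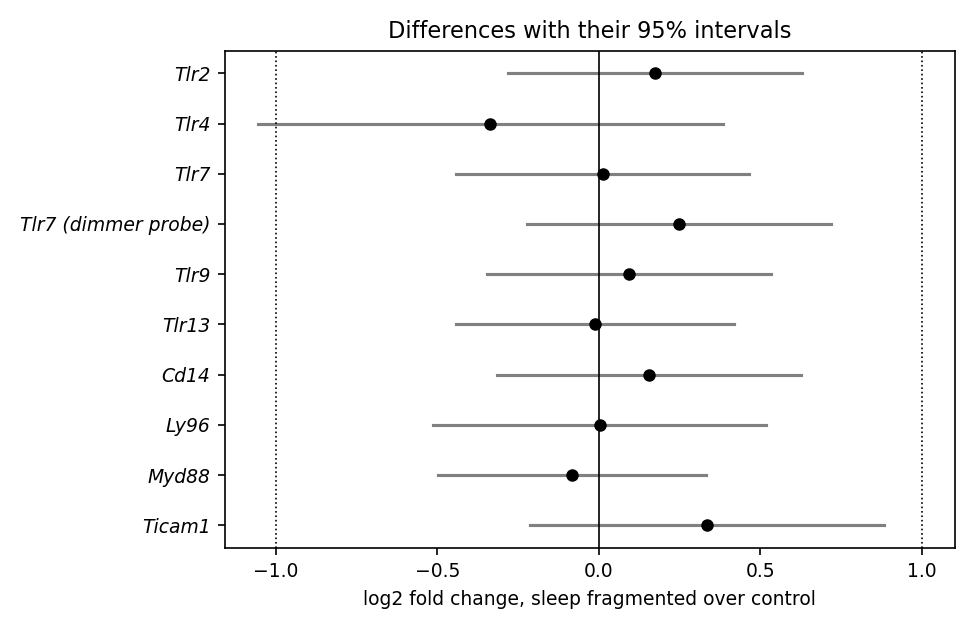
Log2 fold change, sleep fragmented over control (horizontal axis), with 95% intervals from limma for the 10 probes that were tested. Dots are estimates, bars are intervals and dotted lines mark a 2-fold difference either way. Every interval crosses 0, and only that of Tlr4 (0.481 to 1.31 in fold) passes a dotted line.

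For 8 of the 9 tested genes the 95% interval lay within 2-fold in both directions, and for 5 within 1.5-fold. The median log2 fold change of the 9 genes was 0.013, with 6 positive and 3 negative values, beside 0.056 over all 14548 named genes. With median scaling the median of all named genes shifted by -0.21, and 8 of the 9 values were negative. Relative to the median of all named genes, the 9 genes stood at -0.043 under both scalings. Each scaling subtracts 1 constant per array, so this value could not differ between them.

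Within the header pairs, sleep fragmented minus control, Tlr2 differed by 0.31, 0.17 and 0.044 in log2. Among the co-receptor genes, Cd14 had differences of 0.58, 0.042 and -0.16 and Ly96 of 0.60, -0.45 and -0.14. Tlr9 had 0.20, 0.11 and -0.020, Tlr13 -0.11, 0.15 and -0.079, and Myd88 0.052, 0.0067 and -0.31. The brighter Tlr7 probe had 0.18, 0.16 and -0.31.

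The order of the arrays differed between the 9 tested genes. Tlr7, Tlr9 and Ticam1 were highest on sleep fragmented replicate 1 and lowest on control replicate 2. Tlr4 and Ly96 were highest on control replicate 2. Tlr2 and Tlr13 were highest on sleep fragmented replicate 2, and Cd14 and Myd88 on control replicate 3. No single array was the highest or the lowest for all 9 genes.

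Markers of the cells that carry these receptors varied over the same arrays. For macrophages, 13 of 14 markers were on the array and kept, and their mean level ranged between -0.49 and 0.24 on the sleep fragmented arrays and between -0.35 and 0.20 on the control arrays. Replicate 2 was the highest of its group in both cases, as it was for Tlr2, Tlr4 and Tlr13. The atrial means were also highest on replicate 2 of each group (5.86 and 5.19). Of the kept adipocyte markers, Adipoq was too and Fabp4 was not. The part of any of these cells in the values of Tlr2, Tlr4 and Tlr13 was not tested. For neutrophils, 7 of 10 markers were kept and 2 more (Camp and Ltf) failed the detection filter, with means between -1.39 and -0.66 on the sleep fragmented arrays and between -1.52 and -0.53 on the control arrays. For B cells, 6 of 8 were kept and Ms4a1 failed the filter, with means between -1.83 and -1.39 on the sleep fragmented arrays and between -2.13 and -0.43 on the control arrays. For T and NK cells, 4 of 8 were kept, with means between -0.26 and 0.11 on the sleep fragmented arrays and between -0.18 and 0.54 on the control arrays. Plasmacytoid dendritic cells, which carry Tlr7 and Tlr9, had all 5 markers kept, with means between 1.94 and 2.28 on the sleep fragmented arrays and between 2.19 and 2.28 on the control arrays. Of these, Bst2 had a log2 fold change of -0.72 ± 0.27 (unadjusted p = 0.0255, adjusted p = 0.949 by limma). The other markers lay between -0.09 (Tcf4) and 0.14 (Siglech). For monocytes, 2 of 5 were kept, with means between -2.83 and -1.28 on the sleep fragmented arrays and between -1.81 and 0.59 on the control arrays. The highest B cell, T and NK cell and monocyte values were those of control replicate 2, the array on which Tlr4 and Ly96 were highest, and the part of these cells in the values of Tlr4 and Ly96 was not tested.

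**Figure D4:**
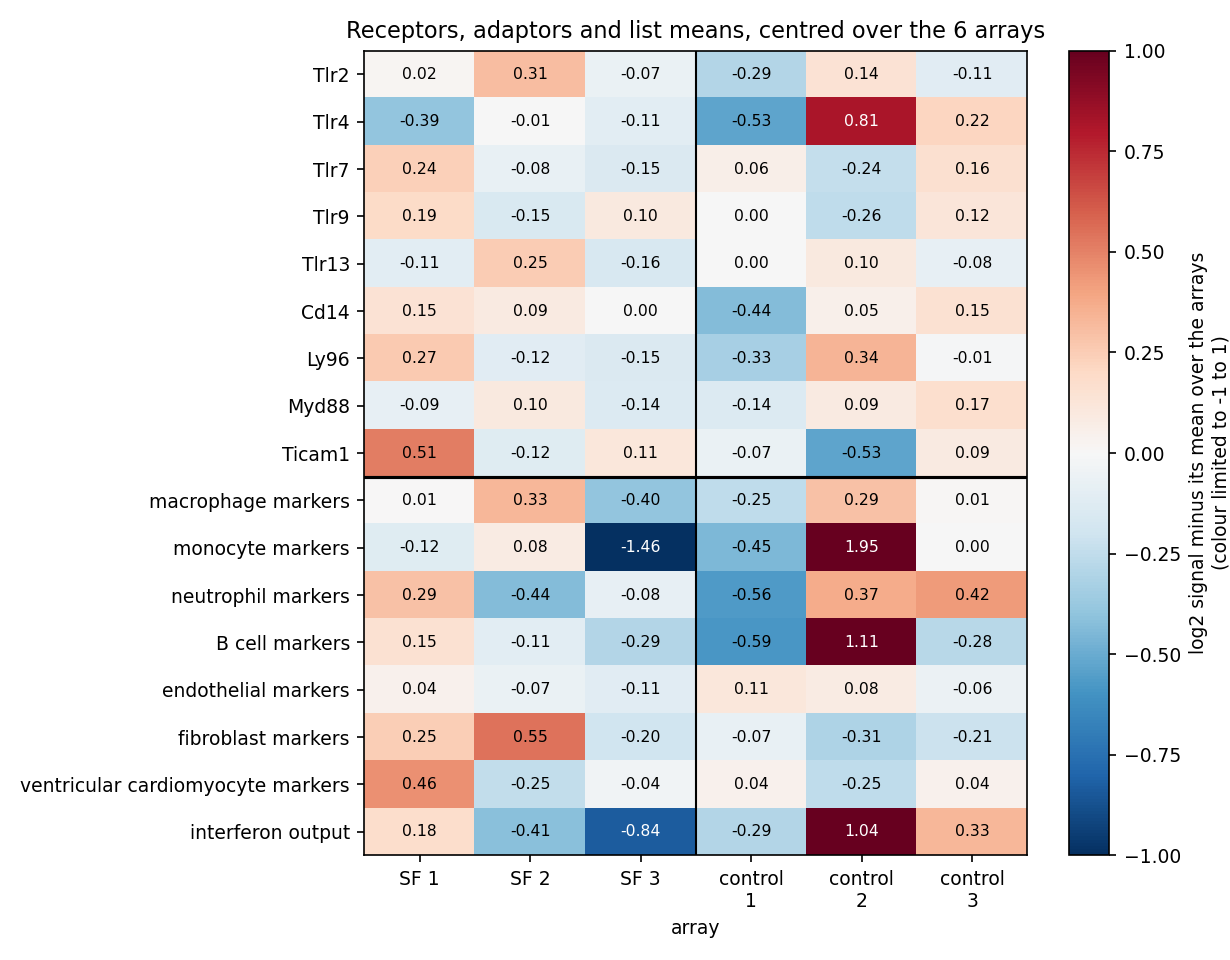
Log2 signal of each tested gene (above the black line) and mean log2 signal of each gene list (below it), less its own mean over the arrays, with sleep fragmented (SF) arrays left of controls. Red cells are above and blue cells below that mean. Tlr4 has the widest range of the genes, from -0.53 on control replicate 1 to 0.81 on control replicate 2, and no gene is red on all arrays of 1 group and blue on all of the other.

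The genes whose array profile lay closest to that of Tlr4 were Jaml, Uri1, Tsr1, Slc40a1 and Hilpda. The measure was the root-mean-square difference of log2 values centred over the 6 arrays, among 14530 genes. It was 0.12 for Jaml and 0.15 for Hilpda, where the median over all genes was 0.54. The choice of these genes fixes that they share the array order of Tlr4 in large part. Jaml stood at -3.23 on sleep fragmented replicate 1, below the dimmest spot called well above background on that array (-2.62).

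The rest of the pathway was described from 8 lists with 103 genes in all, of which 77 were kept. None passed the adjusted test. At an unadjusted p under 0.05, 0 of the 77 were higher and 5 (6.49%) were lower, beside 1.69% higher and 1.02% lower among all named genes. Of the 5, 3 were interferon-driven genes, and the others were Nfkb1 and Ccl2. The lists were chosen with earlier results of these data known. These shares, and that of the interferon-driven list below, are therefore no independent test. The median log2 fold change of the 77 was 0.022.

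Among other receptors and accessory proteins, 9 of 16 genes were kept, with a median log2 fold change of -0.0023 and 0 at an unadjusted p under 0.05. Tlr5, the flagellin receptor, had the smallest p of them, with a log2 fold change of 0.43 ± 0.30. Tlr1, Tlr6, Tlr8, Tlr11 and Tlr12 were not well above background on all arrays of either group. The chaperone genes that carry receptors to their membranes had values of -0.17 ± 0.18 (Hsp90b1) and 0.12 ± 0.18 (Unc93b1, for the endosomal receptors). Of the other adaptors, Tirap, which links Tlr2 and Tlr4 to MyD88, had a log2 fold change of 0.14 ± 0.19, and Sarm1, a TIR-domain protein, one of 0.59 ± 0.31.

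Among 17 kept genes of kinases and ubiquitin ligases the log2 fold changes lay between -0.24 and 0.30, with a median of -0.027 and 0 at an unadjusted p under 0.05. The kinases Tbk1 (-0.027 ± 0.18) and Irak1 (0.05 ± 0.19 on its brightest probe), which act downstream of TRIF and MyD88, were near 0. Other Irak1 probes gave 0.36 ± 0.29 and 0.17 ± 0.21. Among 10 transcription factor genes, Nfkb1, the precursor of the p50 subunit of NF-kappaB, had a log2 fold change of -0.44 ± 0.19 and an unadjusted p of 0.0474 (adjusted p = 0.949 by limma). It stood at -0.39, -0.19 and -0.16 on the sleep fragmented arrays and at 0.44, 0.07 and 0.07 on the control arrays, without overlap. Its other probe gave 0.11 ± 0.29. Irf3, the factor that TRIF signalling activates, stood at 0.07 ± 0.17.

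NF-kappaB target genes had a median log2 fold change of 0.019 over the 10 kept of 18. Those not kept included Il1b, Il6, Tnf and Cxcl2, the classical outputs of Toll-like receptor signalling. Ccl2, which draws monocytes into tissue, stood at -0.50 ± 0.21 in log2 fold change with an unadjusted p of 0.0470, and its groups overlapped. The 13 kept inhibitor genes had a median of 0.011 and 0 at an unadjusted p under 0.05, among them Nfkbia (0.49 ± 0.34), which holds NF-kappaB in the cytoplasm. Of the proteins that can act as ligands of these receptors in damaged tissue, 10 of 11 were kept, with a median of 0.060. S100a8 and S100a9, which form a ligand of Tlr4 and are neutrophil markers too, had log2 fold changes of -1.14 ± 0.63 and -1.24 ± 0.72. Both were highest on control replicate 2, at -0.15 and 1.63, where Tlr4 was highest as well. Of the other kept neutrophil markers, Retnlg was also highest on that array, while Csf3r, Cxcr2, Mmp8 and Ngp were each lowest there.

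The interferon-driven genes of the list, which routes other than Toll-like receptors also induce, had the lowest median of the 8 lists, -0.88. Of the 6 kept of 9, 3 had an unadjusted p under 0.05, all lower, beside 2.72% of all named genes in either direction. The mean level of the list was -0.05, -0.64 and -1.06 on the sleep fragmented arrays and -0.52, 0.82 and 0.11 on the control arrays. Its highest array, control replicate 2, was also the one with the highest B cell, T and NK cell and monocyte means. Of the kept T and NK cell markers, only Cd2 was highest there, while Cd3e, Cd4 and Nkg7 were lowest. The B cell markers were split too, with Jchain highest and Blk lowest. The part of these cells in the interferon-driven values was not tested. Ifit1, whose promoter is printed above, stood at -0.63, -0.41 and -1.24 on the sleep fragmented arrays and at 0.37, 1.22 and 0.82 on the control arrays, with a log2 fold change of -1.56 ± 0.29 (adjusted p = 0.784 by limma). The groups did not overlap for Ifit1, while for Myd88, which carries a match to the same element, they did. Ifit3 (-1.70 ± 0.43) and Isg15 (-1.26 ± 0.46) were the other 2, and a second Isg15 probe gave -0.041. Rsad2 had a value of 0.51 ± 0.36. The windows of Ifit3, Isg15, Rsad2 and Cxcl10 also held a match to the element, and those of Ifit2 held none. Groups overlapped for Isg15, Rsad2 and Ifit2 (-0.50 ± 0.27), and not for Ifit3. Ifnb1, the interferon gene itself, and Cxcl10 did not pass the detection filter in either group.

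**Figure D5:**
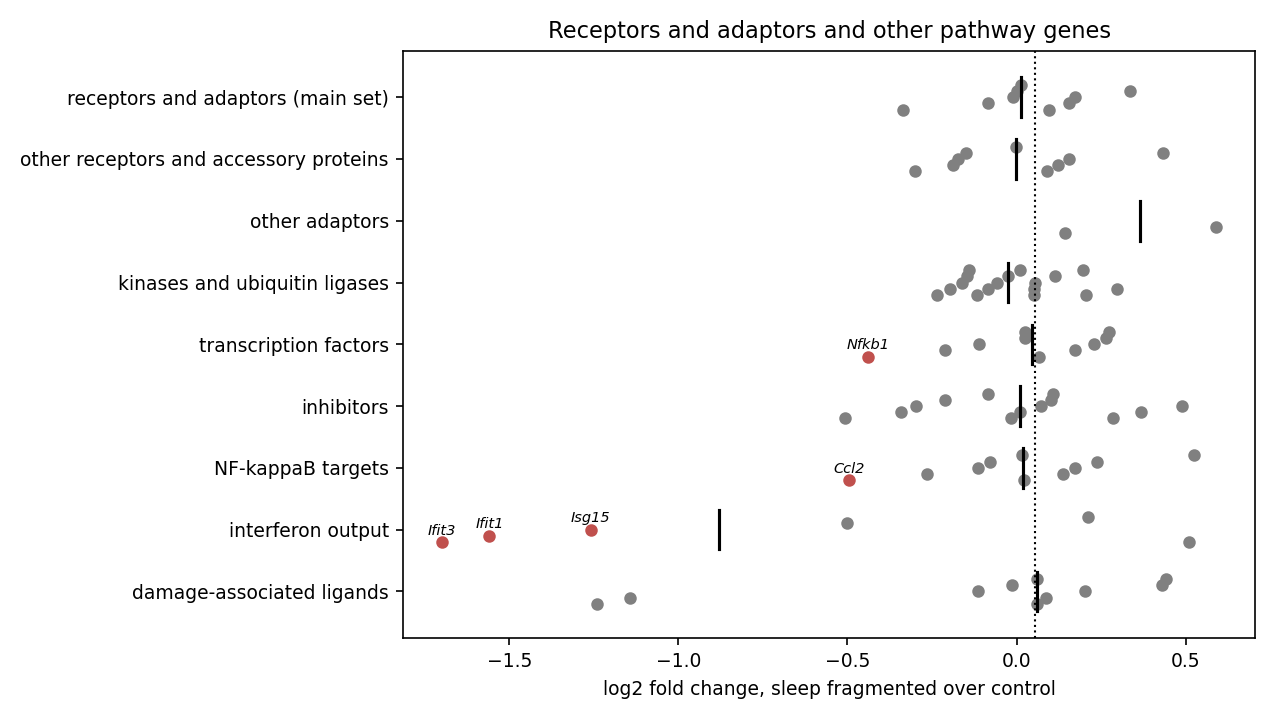
Log2 fold change, sleep fragmented over control (horizontal axis), of each kept gene in the set described here (top) and in the 8 pathway lists, with the median of each list as a bar and the median of all named genes (0.056) as a dotted line. Red dots have an unadjusted p under 0.05 and are named. The receptor and adaptor genes lie between -0.34 and 0.34, and the 5 red dots are all negative.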

How the data were processed

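Total RNA of 6 heart ventricle samples was hybridised to 1-colour Agilent arrays. Groups and replicate numbers come from the sample titles. Per the file headers, the deposited intensity values (processed spot signals, and median spot and local background signals) come from version 11.0.1.1 of Agilent Feature Extraction, while the submitters' processing notes name 10.5.1.1. The deposited flags for outlying, saturated and well-above-background spots are other values, 0 or 1. The authors also deposited a table of log2 values whose columns share 1 distribution. The sources used here do not name the steps behind it, its scale is that of log2 signal (r of 0.998 or more with each array), and it was used as an alternative only, with column medians of 5.54.

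Spots flagged as outliers (180 to 240 per array) were left out, spots of a probe were averaged as log2 signal, and each array's 75th percentile was subtracted. A probe was kept if all arrays of 1 group or of both had it well above background (25219 of 39429). RefSeq accessions named 27234 probes (69.1%) through a GRCm38.p6 gene table, and the brightest kept probe stood for a gene. Groups were compared with limma 3.58.1 (lmFit, eBayes) in R 4.3.3, with two-sided p-values adjusted over the kept probes by the Benjamini-Hochberg method. The number of arrays limits the precision. The fit was tested on simulated data. The genes and lists were chosen with earlier results of these data known. The rule for other named genes took, per pathway list, the 3 smallest p and every unadjusted p under 0.05, for marker lists the 2 brightest genes and the smallest p, and the 5 genes most like the most variable receptor gene. The text names those that bear on the set. Other pathway genes were chosen for their role after their values were seen. Correlations of same-numbered arrays' deviations from their group means were 0.063, 0.55 and 0.21, so the numbers were not taken to pair samples. The alternatives were 17 settings of scaling, filter, block, weights, prior and left-out arrays.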

Additional observations from a re-analysis of the deposited data

How the results depend on the processing

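No result for the receptor and adaptor genes passed the adjusted threshold under the main setting or under any of the 17 alternatives. The count of all kept probes with an adjusted p under 0.05 was 0 under the main setting and 3 with normexp background correction. With the replicate block, which coincides with the header label block, it was 4, and the block changed no call among the 9 genes. By unadjusted p, the count of 683 probes became 1130 with median scaling, 1436 with no filter on dim probes, 1970 with the replicate block and 1469 with array weights, and ranged between 427 (without sleep fragmented replicate 1) and 2907 (without control replicate 3) when 1 array was left out, with 1177 without sleep fragmented replicate 2 and 450 without control replicate 1. The count of 5 pathway genes became 9 with the replicate block and 3 with no filter, and ranged between 3 and 8 with arrays left out (3 without sleep fragmented replicate 3, 8 without control replicate 1). The count of the 9 genes at an unadjusted p under 0.05 was 0, and 1 (Tlr4) without control replicate 1.

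The median log2 fold change of the 9 genes was 0.013, -0.20 with median scaling and between -0.014 and 0.095 with arrays left out. Signs turned under some alternatives for all tested genes except Myd88 and Ticam1, also for Tlr4 with its main value of -0.34. With median scaling Tlr2 had -0.034, Tlr7 -0.20, Tlr9 -0.11, Cd14 -0.053 and Ly96 -0.21. With quantile normalization Tlr2 had -0.00044, Tlr7 -0.082, Cd14 -0.037 and Ly96 -0.057, and the deposited value table gave -0.000089, -0.082, -0.037 and -0.056 for the same genes. Tlr9 had -0.013 with normexp. With array weights Tlr4 had 0.032 and Tlr7 -0.083. With arrays left out the ranges were -0.10 to 0.095 for Tlr7, -0.14 to 0.068 for Tlr13, -0.16 to 0.17 for Ly96, -0.024 to 0.27 for Cd14 and -0.011 to 0.19 for Tlr9. Without a change of sign they were 0.061 to 0.29 for Tlr2, -0.68 to -0.013 for Tlr4, -0.17 to -0.020 for Myd88 and 0.15 to 0.48 for Ticam1. Median scaling subtracts 1 constant per array, so its shift of -0.21 is that of all genes. For the other turns the cause was not tested. Signal over background limits Tlr3.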
